A study of Mus musculus with 15 samples.

Results

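The 10 genes described here encode the core enzymes of oxidative stress defence: the superoxide dismutases Sod1, Sod2 and Sod3, the peroxide-removing enzymes Cat, Gpx1 and Gpx3, and the stress-inducible enzymes Nqo1, Hmox1, Gclm and Txnrd1. They were chosen by symbol, from probe sets whose annotation names a single gene, and each gene is read from its probe set with the highest mean over all arrays. All 10 were measured, out of 17097 genes on the array, and all 10 lay among the 13523 genes bright enough to be tested. RNA was taken from PDGFRa-positive cells that had been sorted out of the kidneys of adult C57BL/6 mice. PDGFRa, a receptor for platelet-derived growth factor, marks kidney fibroblasts. The 15 arrays formed 5 groups of 3: kidney after 14 days of unilateral ureteral obstruction (UUO, arrays 10 to 12), uninjured kidney (arrays 13 to 15), and kidney 3 days (arrays 1 to 3), 7 days (arrays 4 to 6) and 14 days (arrays 7 to 9) after folic acid. A large dose of folic acid damages the tubules and causes acute kidney injury, while a tied ureter leads to progressive scarring. The labels describe no sham operation or vehicle for the uninjured mice, and they do not state whether separate animals gave the 3 arrays of each group. What the p-values measure is therefore only the spread between these samples, and that spread may be technical.

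Cells make superoxide as a by-product of respiration and through dedicated oxidases. Superoxide dismutases turn it into hydrogen peroxide, which catalase and the glutathione peroxidases reduce to water. The transcription factor NRF2, held back by KEAP1 in resting cells and competing with BACH1 for the same DNA element, induces a second line of enzymes that make glutathione, recycle thioredoxin, reduce quinones and degrade haem. In the kidney the tubule epithelium, rich in mitochondria and peroxisomes, is a main site of these enzymes, and proximal tubule cells are the main source of the Gpx3 protein that circulates in plasma.

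Levels are log2 array intensities, and a difference of 1 is a 2-fold difference. Calls rest on limma's moderated test at an adjusted p under 0.05, with Benjamini-Hochberg adjustment over the 13523 genes tested. The array medians lay between 4.93 and 5.06 on this scale. Markers of other cells moved between the groups and are given first because several of the 10 genes moved with them. The mean level of 9 fibroblast markers ran from 9.39 to 9.46 in UUO, from 5.20 to 5.98 in uninjured kidney, from 8.25 to 8.64 at folic acid day 3, from 8.22 to 8.86 at day 7 and from 7.33 to 8.75 at day 14. The mean of the 11 proximal tubule markers measured, of 13 listed, ran from 5.31 to 5.72 in UUO, from 8.18 to 9.64 in uninjured kidney, from 6.26 to 6.65 at day 3, from 5.55 to 8.37 at day 7 and from 6.87 to 9.21 at day 14. The mean of 13 macrophage markers ran from 5.94 to 6.24 in UUO, from 4.90 to 5.23 in uninjured kidney, from 5.78 to 6.06 at day 3, from 7.70 to 8.80 at day 7 and from 7.20 to 8.77 at day 14. The uninjured arrays had the lowest means of this fibroblast list, which holds matrix genes such as Col1a1 and Col3a1, but not the lowest levels of its receptor genes. Pdgfra, the gene of the sort, averaged 5.99 in UUO, 6.01 in uninjured kidney, 6.69 at day 3, 5.50 at day 7 and 5.28 at day 14, and Pdgfrb averaged 9.70, 9.53, 10.32, 9.94 and 9.32 in the same order. Of the other lists, 7 of 7 distal nephron markers fell in UUO against uninjured kidney (median -3.23), 4 at day 3 and 3 at day 7, and all 3 podocyte markers fell at day 3 and at day 7 and 2 in UUO. Fewer cells of a type and less RNA per cell cannot be told apart in such samples.

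Against uninjured kidney, Cat, Gpx3 and Nqo1 fell in UUO, Hmox1 rose at folic acid day 3, and none of the 10 was called at folic acid day 7 or day 14. The UUO count of 3 of 10 compares with 16.6% of all genes tested, and with 7.52% for genes that fell. The folic acid day 3 count of 1 of 10 compares with 17% of all genes, and with 10.6% for genes that rose. At day 7 and day 14 limma called 11.7% and 5.67% of all genes in either direction, and 2 and 0 of the 10 genes had an unadjusted p under 0.05. The median difference of the 10 genes was -0.48 in UUO, -0.22 at day 3, -0.25 at day 7 and 0.07 at day 14, where the median of all genes lay at -0.01, 0.02, 0.01 and 0.02. The F test for any difference among the 5 groups called Gpx3 alone (adjusted p = 0.0401), where 15.3% of all genes were called and 6 of the 10 had an unadjusted p under 0.05. The F test called 3, 3 and 2 of the 10 without array 4, 6 or 9, and 0 without any other single array. The count in UUO was 1 without array 10, 11, 12, 14 or 15 and 5 without arrays 4, 7 and 8, the 3 folic acid arrays with the highest tubule means, which leaves folic acid day 14 with array 9 alone. At day 3 it was 0 without array 1, 2, 13 or 14, 2 without array 6 and 3 without array 4, and at day 7 it was 2 without array 4. In UUO and at day 3 it was 0 with either the proximal tubule mean or the macrophage mean as a covariate.

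**Figure D1:**
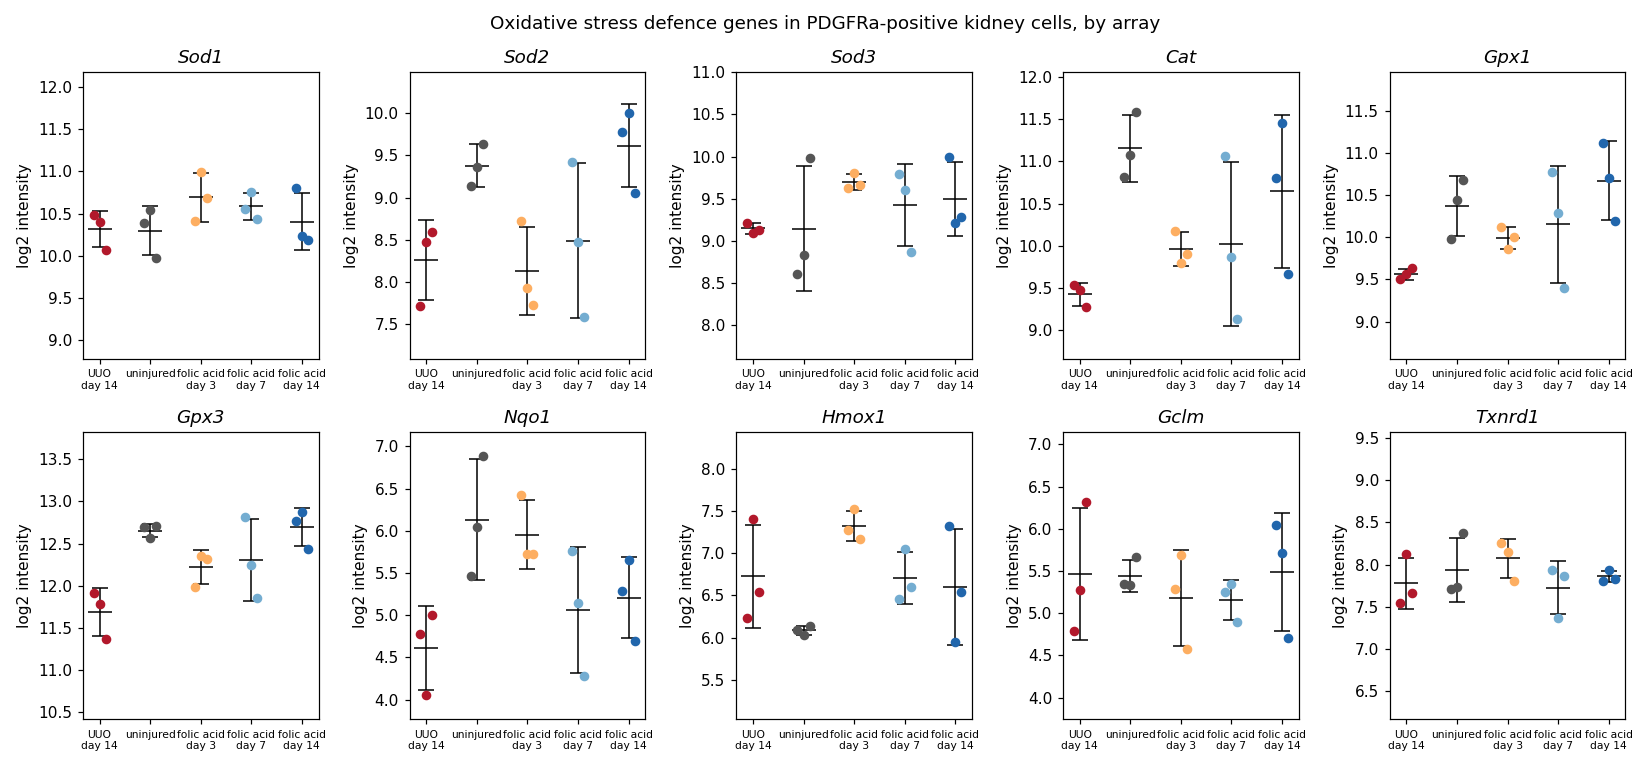
Log2 level of the 10 genes on each of the 15 arrays, by group, with the group mean and SD drawn as bars (n = 3 each); every panel spans the same height on the log2 axis. The UUO points of Cat and Gpx3 lie below all uninjured points, as for 20.9% of all genes. The folic acid day 3 points of Hmox1 lie above all uninjured points, as for 22.7%. The groups of Gclm, Txnrd1 and Sod1 overlap throughout.

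Among the superoxide dismutases none was called in any comparison with all 15 arrays. Sod1 encodes the copper-zinc enzyme of the cytosol. It had levels of 10.48, 10.40 and 10.07 in UUO, 10.39, 10.54 and 9.97 in uninjured kidney, 10.41, 10.99 and 10.69 on folic acid day 3, 10.56, 10.76 and 10.44 at day 7 and 10.80, 10.23 and 10.19 at day 14. The 5 groups overlapped, and the largest of its group differences against uninjured kidney was 0.39 (SE 0.22, adjusted p = 0.241) at day 3. Sod3 encodes the secreted enzyme that binds the extracellular matrix. Its levels were 9.22, 9.10 and 9.13 in UUO, 8.61, 8.84 and 9.99 in uninjured kidney, 9.63, 9.81 and 9.67 at day 3, 9.79, 9.61 and 8.87 at day 7 and 10.0, 9.21 and 9.28 at day 14. Both the day 3 and the UUO arrays lay close together (SD 0.09 and 0.06), while the uninjured arrays spread over 1.38, with array 15 the highest. The difference at day 3 of 0.55 (SE 0.34, adjusted p = 0.292) was not called. Without array 15 it was 0.98 and was called (adjusted p = 0.0455, in a range of 0.0455 to 0.694 over all alternatives).

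Sod2, the manganese enzyme of the mitochondrial matrix, moved more than the other dismutases. Its levels were 7.72, 8.47 and 8.59 in UUO, 9.14, 9.36 and 9.64 in uninjured kidney, 8.72, 7.93 and 7.73 on folic acid day 3, 9.42, 8.47 and 7.58 at day 7 and 9.78, 10.0 and 9.06 at day 14. All UUO and day 3 arrays lay below all uninjured arrays, and the day 7 arrays spread from the low to the high range. Such a gap below uninjured kidney was seen for 20.9% of all genes in UUO and 19.4% at day 3. The difference from uninjured kidney was -1.12 (SE 0.43, adjusted p = 0.0968) in UUO and -1.26 (SE 0.43, adjusted p = 0.0639) at day 3, and neither passed the test. Without array 4 both were called (adjusted p = 0.0487 and 0.0302), as was the day 7 difference, which was then -1.36 (adjusted p = 0.0456) against -0.90 with all arrays, and the day 3 difference was also called without array 6 (adjusted p = 0.0324). The probe sets of Sod2 did not give the same call. Of the 3 others, the brightest, with a mean of 7.83 over the 15 arrays, gave -1.77 in UUO (adjusted p = 0.0101), and the dimmest, with a mean of 4.62, gave -0.57 (adjusted p = 0.0395). The remaining probe set, with a mean of 6.22, averaged 5.45 in UUO against 6.89 in uninjured kidney and was not called. At day 3 the 3, from brightest to dimmest, averaged 7.50, 6.69 and 4.66, against 8.68, 6.89 and 4.92 in uninjured kidney. None of them was called at day 3. Over all alternatives, including these probe sets, the adjusted p ran from 0.0101 to 0.711 in UUO and from 0.0181 to 0.858 at day 3.

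Cat encodes catalase, the peroxisomal enzyme that splits hydrogen peroxide. Its levels were 9.53, 9.47 and 9.27 in UUO, 10.81, 11.07 and 11.59 in uninjured kidney, 10.18, 9.80 and 9.90 on folic acid day 3, 11.06, 9.87 and 9.13 at day 7 and 10.80, 11.46 and 9.67 at day 14. The UUO arrays lay below every uninjured array, as for 20.9% of all genes, and below every array of folic acid day 14, as for 11.1%. The day 7 and day 14 groups each held both bright and dim arrays. Cat fell 3.33-fold in UUO (log2 -1.74, SE 0.47, adjusted p = 0.0245). Leaving out array 10, 11, 12, 14 or 15 ended the call (adjusted p 0.0522 to 0.0969), with the difference between -1.91 and -1.52 over all single arrays. The other Cat probe set gave -1.43 (adjusted p = 0.0677), within a range of 0.00114 to 0.562 over all alternatives. At day 3 and day 7 Cat differed by -1.20 (SE 0.47, adjusted p = 0.102) and -1.13 (SE 0.47, adjusted p = 0.142) and was not called. Without array 4 both were called, at -1.20 (adjusted p = 0.0493) and -1.66 (adjusted p = 0.0277), and over all single arrays the day 7 difference ran from -1.66 to -0.69. The adjusted p ran from 0.00812 to 0.632 at day 3 and from 0.00402 to 0.962 at day 7 over all alternatives.

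Gpx3 encodes the secreted glutathione peroxidase of plasma. It had levels of 11.91, 11.78 and 11.37 in UUO, 12.69, 12.56 and 12.71 in uninjured kidney, 11.99, 12.35 and 12.32 on folic acid day 3, 12.81, 12.25 and 11.85 at day 7 and 12.77, 12.87 and 12.44 at day 14. The 3 UUO arrays lay below every uninjured array, as for 20.9% of all genes, and below every array of folic acid day 14, as for 11.1%. Gpx3 fell 1.95-fold in UUO against uninjured kidney (log2 -0.96, SE 0.23, adjusted p = 0.0125), and without array 12 the difference was -0.81 and was not called (adjusted p = 0.0562). At folic acid day 14 its level was 12.70 ± 0.22, against 12.65 ± 0.08 in uninjured kidney (SD, n = 3 each), a difference of 0.04 (SE 0.23, adjusted p = 0.941).

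Gpx1 encodes the intracellular glutathione peroxidase of the cytosol and mitochondria. Its levels were 9.50, 9.56 and 9.63 in UUO, 9.98, 10.44 and 10.68 in uninjured kidney, 10.12, 9.86 and 10.0 on folic acid day 3, 10.77, 10.29 and 9.40 at day 7 and 11.12, 10.70 and 10.19 at day 14. The UUO arrays were the tightest group (SD 0.06). They lay below every uninjured array, as for 20.9% of all genes, and below every array of folic acid day 14, as for 11.1%. The difference of -0.80 (SE 0.32) from uninjured kidney did not pass the test (adjusted p = 0.106), and without array 6 it did (adjusted p = 0.042, in a range of 0.035 to 0.458 over all alternatives).

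Hmox1 encodes haem oxygenase 1, which breaks haem into iron, carbon monoxide and biliverdin. Its levels were 6.23, 7.41 and 6.54 in UUO, 6.09, 6.03 and 6.14 in uninjured kidney, 7.28, 7.52 and 7.17 on folic acid day 3, 6.46, 7.05 and 6.60 at day 7 and 7.32, 5.95 and 6.54 at day 14. The uninjured arrays lay within 0.11 of one another, and every array of day 3 lay above them. At day 3, 22.7% of all genes lay wholly above uninjured kidney. Hmox1 rose 2.36-fold at day 3 (log2 1.24, SE 0.34, adjusted p = 0.0249). Leaving out array 1, 2, 13, 14 or 15 ended the call (adjusted p 0.0605 to 0.0781), while the difference stayed between 1.14 and 1.31 over all single arrays. The differences of 0.61 at day 7 (SE 0.34, adjusted p = 0.268), 0.52 at day 14 (SE 0.34, adjusted p = 0.432) and 0.64 in UUO (SE 0.34, adjusted p = 0.229) were not called.

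Nqo1 encodes a quinone reductase and is a standard readout of NRF2 activity. It had levels of 4.78, 4.05 and 5.00 in UUO, 5.47, 6.04 and 6.89 in uninjured kidney, 6.43, 5.72 and 5.72 on folic acid day 3, 5.76, 5.14 and 4.28 at day 7 and 5.29, 5.65 and 4.69 at day 14. The UUO arrays lay below all uninjured arrays, as for 20.9% of all genes. Nqo1 was dim, close to the array medians, and cleared the dim-gene level on 13 of the 15 arrays, so its differences rest partly on values near that level. It fell 2.88-fold in UUO (log2 -1.52, SE 0.44, adjusted p = 0.0322). Leaving out array 10, 11, 14 or 15 ended the call (adjusted p 0.059 to 0.138), with the difference between -1.86 and -1.15 over all single arrays. The differences of -1.07 at day 7 (SE 0.44, adjusted p = 0.137) and -0.92 at day 14 (SE 0.44, adjusted p = 0.262) were not called.

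Gclm, the modifier subunit of the enzyme that limits glutathione synthesis, and Txnrd1, the cytosolic thioredoxin reductase, were not called in any comparison. Gclm had levels of 4.79, 5.27 and 6.32 in UUO, 5.34, 5.33 and 5.66 in uninjured kidney, 5.29, 5.69 and 4.57 on folic acid day 3, 5.25, 5.34 and 4.89 at day 7 and 6.05, 5.71 and 4.70 at day 14. Its group means spanned 0.33, less than its pooled SD of 0.55. Txnrd1 had levels of 7.55, 8.12 and 7.66 in UUO, 7.71, 7.73 and 8.37 in uninjured kidney, 8.26, 8.15 and 7.81 at day 3, 7.94, 7.37 and 7.87 at day 7 and 7.81, 7.94 and 7.83 at day 14. Its largest difference from uninjured kidney was -0.21 (SE 0.22, adjusted p = 0.597) at day 7. Of the 4 stress-inducible genes 1 rose at day 3, 1 fell in UUO and 2 were called in no comparison.

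**Figure D2:**
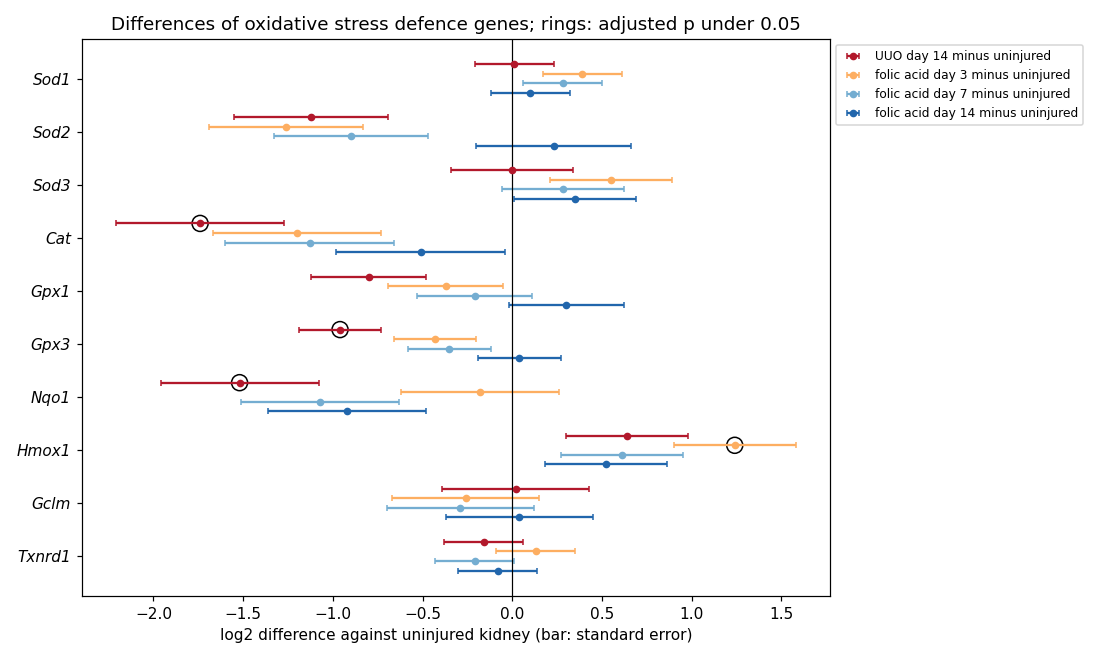
Log2 difference of each of the 10 genes in UUO and at folic acid day 3, 7 and 14 from uninjured kidney, as dots with SE bars from limma on 3 arrays a group; rings mark an adjusted p under 0.05. Rings stand at Cat, Gpx3 and Nqo1 in UUO, all below 0, and at Hmox1 on day 3, above 0.

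The window of 250 bases before each listed start was read from RefSeq (GRCm38.p6) for 8 of the 10 genes, with 10 windows in all. Hmox1 and Sod3 were not searched. A listed start need not be the annotated start of the gene. Each window was searched on both strands for the core of the antioxidant response element bound by NRF2 (TGACNNNGC) and for the AP-1 motif (TGACTCA). Nqo1, Gclm and Txnrd1 are shown because they are standard NRF2 targets, and Cat and Gpx3, chosen after their values were seen, because they fell in UUO. Capitals mark the response element core, which in both windows that show it here lies on the opposite strand.
Cat (chr2:103485154-103485403, minus strand): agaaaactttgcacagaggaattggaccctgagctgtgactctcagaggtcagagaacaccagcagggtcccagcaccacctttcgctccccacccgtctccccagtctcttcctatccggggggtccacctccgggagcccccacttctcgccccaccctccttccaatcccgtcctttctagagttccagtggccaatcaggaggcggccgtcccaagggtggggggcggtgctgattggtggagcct
Gpx3 (chr11:54902604-54902853, plus strand): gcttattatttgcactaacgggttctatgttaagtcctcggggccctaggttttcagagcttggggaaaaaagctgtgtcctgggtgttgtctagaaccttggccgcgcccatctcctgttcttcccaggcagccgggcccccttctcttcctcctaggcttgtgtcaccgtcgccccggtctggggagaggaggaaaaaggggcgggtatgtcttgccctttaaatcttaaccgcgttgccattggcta
Nqo1 (chr8:107403206-107403455, minus strand): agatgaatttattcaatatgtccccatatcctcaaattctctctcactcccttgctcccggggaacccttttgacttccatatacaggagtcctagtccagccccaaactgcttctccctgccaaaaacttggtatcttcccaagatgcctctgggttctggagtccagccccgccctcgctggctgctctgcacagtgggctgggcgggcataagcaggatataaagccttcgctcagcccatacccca
Gclm (chr3:122245307-122245556, plus strand): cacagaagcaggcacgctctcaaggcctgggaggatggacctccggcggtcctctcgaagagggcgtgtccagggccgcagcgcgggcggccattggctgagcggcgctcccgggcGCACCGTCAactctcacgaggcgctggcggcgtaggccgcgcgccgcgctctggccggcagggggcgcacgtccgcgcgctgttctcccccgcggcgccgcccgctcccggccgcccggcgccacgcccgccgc
Txnrd1 (chr10:82858956-82859205, plus strand): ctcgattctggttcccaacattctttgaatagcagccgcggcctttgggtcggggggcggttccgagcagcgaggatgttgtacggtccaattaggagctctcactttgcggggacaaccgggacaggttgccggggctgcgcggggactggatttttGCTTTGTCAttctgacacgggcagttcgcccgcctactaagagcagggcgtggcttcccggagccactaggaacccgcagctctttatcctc

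The core was found 134 bases before the listed start of Gclm, 92 bases before this start of Txnrd1 and 56 bases before the start of Sod1. None of the windows shown for Cat, Gpx3 and Nqo1 held it. The Gclm window ends at 122245556, past the annotated gene start at 122245487, so part of it lies inside the annotated gene. Of all 32851 mouse promoter windows of this length, 10.2% held the core and 4.46% the AP-1 motif, which was in none of the 10 windows searched here. A match is a run of letters and not a bound site, and its absence says only that these letters are not in this window. Sod2 and Gpx1 had windows with no match. The other Txnrd1 windows, chr10:82833701-82833950, which ends at the annotated gene start, and chr10:82860091-82860340, held no match either.

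UUO and folic acid day 14 are the pair of injuries sampled at the same time, and their comparison sets a ureter kept blocked beside a single toxic injury. Gpx3 was the member called, 1 of 10 where 3.03% of all genes were called and 1.75% fell. It was 2.01-fold lower in UUO (log2 -1.01, SE 0.23, adjusted p = 0.0365), and all 3 UUO arrays lay below all 3 folic acid arrays, as for 11.1% of all genes. Without any of arrays 2, 3, 7, 8, 10, 11, 12, 13 and 14 the call ended (adjusted p 0.0502 to 0.116), with the difference between -1.14 and -0.85. The count was 2 without array 4 or 6 and 3 without array 9. Without arrays 4, 7 and 8 the folic acid group is array 9 alone, assumed to vary like the other groups, and the Gpx3 difference was -0.76 (adjusted p = 0.327). Adding the proximal tubule mean to the fit gave -0.37 (adjusted p = 0.849), in a range of 0.0128 to 0.849 over all alternatives. Markers of other cells moved in the same comparison: 3 of 11 proximal tubule markers (median -3.74), 7 of 7 distal nephron markers (median -2.90) and 6 of 13 macrophage markers (median -1.99) fell, and their part in the Gpx3 difference was not tested. Sod2 (-1.35, SE 0.43, adjusted p = 0.117), Gpx1 (-1.10, SE 0.32, adjusted p = 0.0831) and Cat (-1.22, SE 0.47, adjusted p = 0.196) had differences of the same sign and were not called. Without array 9 Gpx1 was called at -1.35 (adjusted p = 0.041) and Cat at -1.71 (adjusted p = 0.0499), and Gpx1 was also called without array 4 or 6 (adjusted p 0.0469 and 0.0277). Of the 10 genes 9 lay below 0 in this comparison, with a median of -0.47 against -0.01 for all genes. Among the 9, Sod1 (-0.09), Txnrd1 (-0.09) and Gclm (-0.03) lay near 0. The share of all genes below 0 was not counted.

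Against the earlier folic acid times, UUO gave 0 calls among the 10 genes by limma, where 1.13% of all genes were called against day 3 and 0.274% against day 7. At an unadjusted p under 0.05 the counts were 2 and 1. Within the folic acid course the 10 genes also gave 0 calls, where limma called 0.695% of all genes between day 7 and day 3, 3.05% between day 14 and day 3 and 0.0518% between day 14 and day 7. The unadjusted counts were 0, 1 and 1. The largest of these differences was that of Sod2, which was 1.49 higher at day 14 than at day 3 (adjusted p = 0.0893).

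Within folic acid day 7 and day 14 the levels of Cat and Gpx3 ran in the order of the proximal tubule means from array to array. Other groups did not all show this order. In uninjured kidney the tubule means were 8.18, 8.65 and 9.64 on arrays 13, 14 and 15. Cat, Gpx1, Sod2 and Nqo1 ran in that order there, and Gpx3 did not. Over all 15 arrays, with groups not separated, Pearson's r with the tubule mean was 0.96 for Cat, 0.91 for Gpx1 and 0.89 for Gpx3. It was 0.86 for Sod2, 0.66 for Nqo1 and -0.44 for Hmox1. At day 3 array 1 had the highest tubule mean (6.65) and the lowest Gpx3 (11.99). In UUO array 11 had the lowest tubule mean (5.31), but array 12 had the lowest Cat (9.27) and Gpx3 (11.37). Array 4, the brightest of day 7 in those markers (8.37), had the highest day 7 levels of Cat (11.06), Gpx3 (12.81), Gpx1 (10.77), Sod2 (9.42) and Nqo1 (5.76), and array 6, the dimmest (5.55), had the lowest of each, at 9.13, 11.85, 9.40, 7.58 and 4.28. At day 14 array 9 had the lowest tubule mean (6.87, against 9.11 and 9.21 for arrays 7 and 8) and the lowest Cat, Gpx3, Gpx1, Sod2 and Nqo1. In UUO 8 of the 11 proximal tubule markers fell against uninjured kidney, with a median of -3.88. With their mean as a covariate the difference in UUO was 0.39 for Cat (adjusted p = 0.562), -0.23 for Gpx3 (adjusted p = 0.763) and 0.21 for Nqo1 (adjusted p = 0.868), and none was called. Over all alternatives the lowest adjusted p was 0.00114 for Cat, 0.00236 for Gpx3 and 0.0142 for Nqo1. The tubule means of UUO and uninjured kidney do not overlap, so those fits extrapolate, as do the macrophage fits and the day 3 fits for Hmox1, whose marker means do not overlap those of uninjured kidney either. Adding the macrophage mean to the fit gave -0.82 for Cat, -0.63 for Gpx3 and -1.04 for Nqo1, again with no call. For Hmox1 at day 3 the 2 covariates gave 1.15 (adjusted p = 0.188) and 0.83 (adjusted p = 0.196), in a range of 0.00234 to 0.196 over all alternatives. Hmox1 showed no such order at day 7, with 6.46 on array 4, 7.05 on array 5 and 6.60 on array 6. The part of tubule or macrophage RNA in these differences was not tested.

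**Figure D3:**
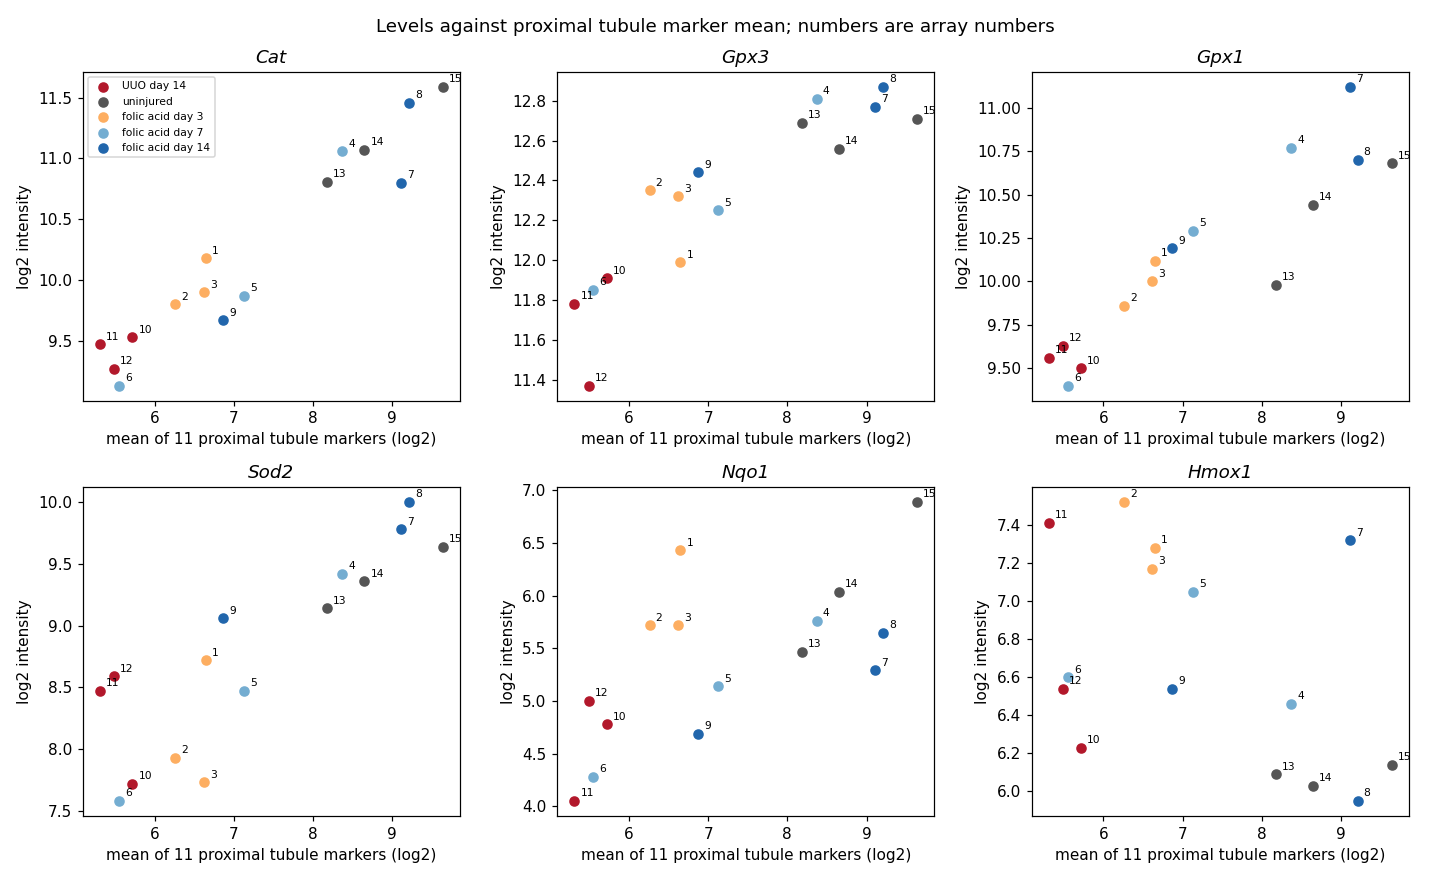
Log2 level of Cat, Gpx3, Gpx1, Sod2, Nqo1 and Hmox1 against the mean log2 level of 11 proximal tubule markers, 1 point per array, numbered by array and coloured by group. Within day 7 and day 14, the array with the lowest tubule mean (6 and 9) is also the lowest in the first 5 genes, and the UUO points sit at the left, between 5.31 and 5.72.

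The genes whose levels over the 15 arrays were most like those of each member were named by Pearson's r, as a description in which all arrays, groups and tubule levels are shared. For Cat they were Slc18a1 (0.975), Aldh6a1 (0.972) and Aldh8a1 (0.957), of which the last 2 encode aldehyde dehydrogenases. For Nqo1 they were Ehhadh (0.901), an enzyme of peroxisomal fatty acid oxidation, Abcc2 (0.890), a transporter of conjugated anions, and Degs1 (0.865). For Gpx1 they were the cytochrome oxidase subunits Cox6a1 (0.968) and Cox5a (0.952) with Acot13 (0.948), and for Gpx3 Cox7c (0.956), another such subunit, Klk1 (0.951) and Cltrn (0.942). For Sod2 they were Uqcrc2 (0.932) and Ndufc1 (0.913), subunits of respiratory complexes, and the epithelial sodium channel subunit Scnn1b (0.913). Hmox1 lay closest to Pdcd6 (0.931), Uspl1 (0.908) and Actr1a (0.905), and Sod1 to Rhoc (0.931), Psmb2 (0.851) and Ergic3 (0.816). The closest genes were less alike for Sod3 (Map3k21, 0.822), Gclm (Gm94, 0.807) and Txnrd1 (Fam207a, 0.827).

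Lists of 67 further genes of the same pathways were described beside the members, of which 54 were measured and 52 tested. In UUO 8 rose and 8 fell, at day 3 11 rose and 5 fell, at day 7 8 rose and 2 fell, and at day 14 7 rose and 0 fell. That is 30.8%, 30.8%, 19.2% and 13.5% of the 52 against 16.6%, 17%, 11.7% and 5.67% of all genes. The median difference of the 52 genes was 0.11, 0.06, 0.07 and 0.27. The UUO count of 16 was 10 without array 11 or 15 and 9 without array 12 or 14, and the day 14 count of 7 was 4 without array 13 or 14. With the macrophage mean as a covariate 0 of the 52 were called at day 7 and at day 14. The macrophage means of those days do not overlap those of uninjured kidney, so that fit extrapolates, and its differences were in part larger (Prdx4 3.61 and Slc40a1 2.79 at day 7) and in part smaller (Gpx7 1.58 and Mt1 0.87 at day 7). With the proximal tubule mean, also extrapolated, 3 were called in UUO and 8 at day 3. Those in UUO were Gpx7, Prdx4 and Slc40a1, so the UUO calls of Bach1, Mafg, Tfrc, Fth1, Mt1 and the others ended. At day 3 Gpx8, Txnip, Glrx, Bach1, Mafg, Idh2, Tfrc and Ftl1 lost their calls with it.

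Gpx7 and Prdx4, peroxidases of the endoplasmic reticulum that use peroxide to drive disulphide formation in secreted proteins, rose in all 4 injury groups. Gpx7 had levels of 7.83, 7.92 and 8.13 in UUO, against 3.76, 3.87 and 4.22 in uninjured kidney, a log2 difference of 4.01 (SE 0.37, adjusted p = 2.73e-05). Its day 3 levels of 7.62, 8.87 and 9.06 gave a log2 difference of 4.56 (adjusted p = 1.23e-05). The uninjured levels lie below the dim-gene level of every array (4.54 to 4.69), so the size of these differences is not exact. Prdx4 had levels of 8.56, 9.09 and 9.81 in UUO, against 5.29, 5.55 and 6.30 in uninjured kidney, and rose 10.9-fold (log2 3.44, SE 0.45, adjusted p = 0.000309). Gpx8, of the same compartment, rose in UUO (log2 2.54), at day 3 (2.76) and at day 7 (2.21), the last of which was not called without array 5 (adjusted p = 0.0703). It was not called at day 14, and with the proximal tubule covariate its differences were 0.83, 1.56 and 1.27 and none was called (adjusted p = 0.59, 0.11 and 0.153). Of the 9 superoxide and peroxide genes tested 3 rose in UUO, at day 3 and at day 7 and 2 at day 14, and 0 fell. The shares of 33.3%, 33.3%, 33.3% and 22.2% compare with 16.6%, 17%, 11.7% and 5.67% of all genes.

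In the glutathione and thioredoxin list 0 rose and 2 fell in UUO among 14 tested, both of them in the glutathione branch. The share called was 14.3%, against 16.6% of all genes tested. Gclc, the catalytic partner of Gclm, had levels of 5.46, 5.49 and 6.02 in UUO, against 7.13, 7.59 and 7.87 in uninjured kidney (log2 -1.88, SE 0.46, adjusted p = 0.0152). Gsr, which recycles oxidised glutathione, differed by -1.86 (SE 0.53, adjusted p = 0.0303). Without arrays 12, 14 or 15 Gclc was not called (adjusted p 0.0504 to 0.0621), nor was Gsr without arrays 11, 12, 14 or 15 (0.0556 to 0.129). After folic acid 3 rose at day 3, 1 at day 7 and 2 at day 14, and 0 fell. These are 21.4%, 7.14% and 14.3% of the list, against 17%, 11.7% and 5.67% of all genes. Txn1, the cytosolic thioredoxin, rose at day 3 (log2 1.48, adjusted p = 0.000155), day 7 (0.93, adjusted p = 0.0054) and day 14 (0.98, adjusted p = 0.0071). Txnip, which binds and inhibits thioredoxin, rose at day 3 (1.03) and day 14 (0.87), and the day 14 call ended without array 7, 8, 13, 14 or 15 (adjusted p 0.0576 to 0.137). Glrx, the third gene at day 3, rose by 0.94 (adjusted p = 0.0469). Leaving out a single array ended that call for 11 of 15 arrays (0.0505 to 0.153). With the mean of probe sets the Glrx difference was 0.27 and was not called (adjusted p = 0.329).

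Among the regulators of NRF2 targets 2 of 7 tested rose and 1 fell in UUO, 1 rose and 1 fell at day 3, 1 rose at day 7 and 0 were called at day 14. In UUO, at day 3 and at day 7 this is 42.9%, 28.6% and 14.3%, against 16.6%, 17% and 11.7% of all genes. Bach1, the repressor that competes with NRF2 at the response element, rose. It had levels of 8.09, 8.42 and 8.61 in UUO, against 5.26, 5.42 and 5.84 in uninjured kidney, a 7.28-fold rise (log2 2.86, SE 0.47, adjusted p = 0.00151). It rose 5.62-fold at day 3 and 5.47-fold at day 7. With the proximal tubule covariate the day 3 difference of Bach1 was 1.71 and was not called (adjusted p = 0.115). Nor was Bach1 called in UUO with that covariate (adjusted p = 0.263). The small MAF partner Mafg fell at day 3 (log2 -0.91, adjusted p = 0.00727) and in UUO (-0.90, adjusted p = 0.0077), and Maff rose in UUO (1.03, adjusted p = 0.0354), a call that ended without array 11, 12, 14 or 15 (0.0614 to 0.145). Of the 7 NADPH-supplying enzymes 1 rose and 2 fell both in UUO and at day 3, and 1 fell at day 7. Their shares of 42.9%, 42.9% and 14.3% stand against the same shares of all genes. Nnt, the mitochondrial transhydrogenase, fell at day 3 (log2 -2.74, adjusted p = 0.000278), at day 7 (-1.36) and in UUO (-1.14, adjusted p = 0.0453). Pgd, of the pentose phosphate pathway, rose at day 3 (1.12) and in UUO (0.87). Idh2 fell at day 3 (-0.91, adjusted p = 0.0295) and in UUO (-0.81, adjusted p = 0.0492). Leaving out a single array ended the Idh2 call at day 3 for 5 of 15 arrays (adjusted p 0.0583 to 0.0962). In UUO it did so for 11 of 15 (0.0516 to 0.153). The Nnt call in UUO ended without any of arrays 1, 2, 3, 5 and 10 to 15 (adjusted p 0.053 to 0.142), that at day 7 without array 5, 6, 14 or 15 (0.0769 to 0.0956), and the Pgd call in UUO without array 11, 12, 13 or 14 (0.0532 to 0.0712). C57BL/6 substrains differ in whether they carry an intact Nnt gene, and the labels name no substrain.

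The haem and iron list holds Hmox2, Blvra and Blvrb, of haem breakdown, beside genes that handle the iron which haem oxygenase releases. It gave calls in every injury group, 3 of 7 tested in UUO, 4 at day 3, 3 at day 7 and 2 at day 14. The shares of 42.9%, 57.1%, 42.9% and 28.6% compare with 16.6%, 17%, 11.7% and 5.67% of all genes. Slc40a1, the iron exporter ferroportin, rose in UUO (log2 1.66, SE 0.30, adjusted p = 0.00271), at day 3 (1.79), at day 7 (1.95) and at day 14 (1.33). Tfrc, the transferrin receptor that imports iron, had levels of 3.94, 3.98 and 4.14 in UUO, against 6.75, 6.83 and 7.02 in uninjured kidney, a log2 difference of -2.85 (SE 0.38, adjusted p = 0.000329). The UUO levels lie below the dim-gene level of every array, so its size is not exact. It fell at day 3 (-2.06) and day 7 (-1.76) and was lower in UUO than at folic acid day 14 (log2 -2.49, adjusted p = 0.00672), the 1 call of the 52 in that comparison, where leaving out array 1, 8 or 10 gave 2 calls and array 9 gave 3. The ferritin light chain gene Ftl1 rose at day 3, day 7 and day 14 (0.96, 1.29 and 1.21), and the heavy chain gene Fth1 fell in UUO (-0.66, SE 0.12, adjusted p = 0.00334). At day 14 the Slc40a1 call ended without array 7, 8, 13 or 14 (adjusted p 0.0623 to 0.0967) and the Ftl1 call without array 7, 13, 14 or 15 (0.0502 to 0.0759), and at day 3 the Ftl1 call ended without array 1, 2, 3, 13, 14 or 15 (0.0702 to 0.0815). Mt1, a metallothionein that binds zinc and copper and quenches radicals, had levels of 12.31, 12.38 and 12.40 at day 3, against 8.73, 8.89 and 9.13 in uninjured kidney, and rose 10.9-fold (adjusted p = 4.42e-06). It rose 4.31-fold in UUO, 4.28-fold at day 7 and 3.62-fold at day 14. The UUO call of Mt1 ended with the proximal tubule covariate (adjusted p = 0.0507). With the mean of probe sets the day 14 difference was 0.85 on the log2 scale, against 1.86, and was not called (adjusted p = 0.0507, in a range of 0.000227 to 0.808 over all alternatives), and that of Slc40a1 was 0.73, against 1.33, and was not called (adjusted p = 0.156). Of 7 genes for sources of oxidants 1 was called, in UUO (14.3%, against 16.6% of all genes). Nox4, an oxidase that makes hydrogen peroxide, fell in UUO (log2 -2.95, SE 0.90, adjusted p = 0.0409), and without array 1, 10, 11, 12, 14 or 15 it was not called (adjusted p 0.0533 to 0.159).

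**Figure D4:**
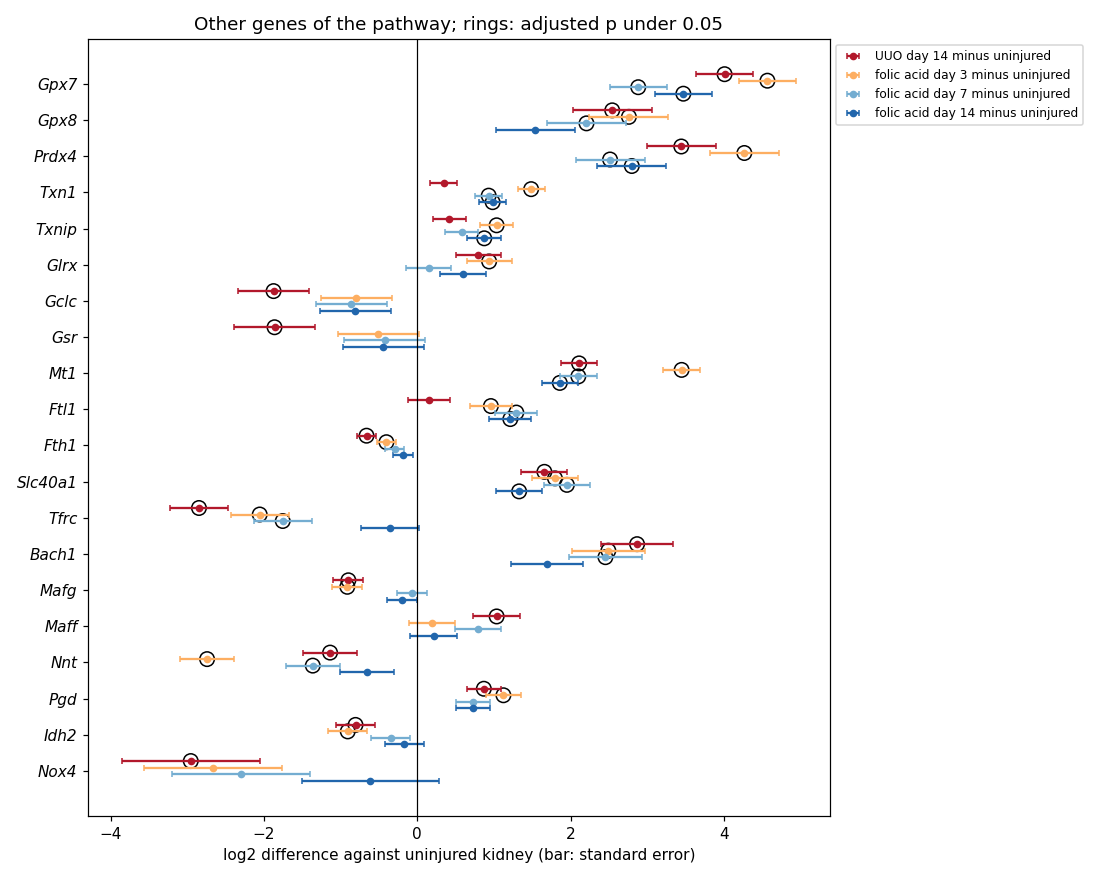
Log2 difference from uninjured kidney of 20 further genes of the same pathways in UUO and at folic acid day 3, 7 and 14, as dots with SE bars from limma on 3 arrays a group; rings mark an adjusted p under 0.05. Gpx7, Prdx4, Slc40a1 and Mt1 are ringed above 0 in all 4 comparisons, and Tfrc is ringed below 0 in UUO, at -2.85, and at day 3 and day 7.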

How the data were processed

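RNA of PDGFRa-positive cells was amplified and labelled with biotin, per the labels' protocols, then hybridised to 15 arrays. Each array has 45141 probe sets, for which the authors deposited log2 intensities. The submitters' processing notes name RMA, affy and limma, with no versions. They were used without further normalization. Probe sets were named from the platform annotation, and the brightest probe set stood for its gene. Genes above the 40th percentile of their array in at least 3 arrays were tested. One mean per group was fitted with limma 3.58.1 in R 4.3.3, with Benjamini-Hochberg adjustment within each comparison and calls at an adjusted p under 0.05, and the fit was tested on simulated data. The number of arrays limits the precision. The 10 genes were all named, with up to 3 called genes of smallest p from each of 7 wider lists and the 3 genes most alike to each. Members, lists and tests were chosen with earlier results of these data known. Alternatives covered normalization, weights, filters, probe sets, marker covariates, thresholds and left-out arrays. Promoter sequences came from RefSeq tables. Plots were drawn with matplotlib 3.10.9.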

Additional observations from a re-analysis of the deposited data

Results flagged for a closer look

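Gpx3 differed between the 2 injuries sampled at day 14. Its level in UUO minus that at folic acid day 14 was -1.01 on the log2 scale (SE 0.23, adjusted p = 0.0365 by limma). All 3 UUO arrays lay below all 3 folic acid arrays, as for 11.1% of all genes. Gpx3 was picked out because this difference between injury groups passed the threshold in these data, so the values given are selected ones. Against the same uninjured arrays, Gpx3 differed by -0.96 in UUO and by 0.04 at folic acid day 14. The adjusted p ran from 0.0128 to 0.849 over all alternatives, and the difference from -1.78 to -0.37.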

How the results depend on the processing

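The 50 differences of the 10 genes from uninjured kidney and between UUO and folic acid day 14 were computed under 1380 combinations of gene, comparison and setting. Of these, 1210 kept their direction and their side of the threshold. Part of that was fixed in advance, so the totals do not measure robustness. Leaving out an array of a group not compared leaves the log2 difference as it was. A threshold of 0.01 cannot move a difference that was not called. In 39 a call was lost with the sign kept and in 35 one was gained. In 96 the sign turned, with or without the loss of a call, which touched 43 of the 50 differences. Of 1323 for the wider lists, 183 lost a call with the sign kept and 4 turned sign. The cause of these changes was not tested. No paired analysis was possible because the running numbers of the samples are not shared between groups. The setting without arrays 4, 7 and 8, which leaves folic acid day 14 with array 9 alone, assumed to vary like the other groups, and all settings of the wider lists were chosen after seeing the data. Counts of the 10 genes called were, for the F test, 0 at an adjusted p under 0.01, 4 with array weights, 3 with the macrophage covariate, 0 with median centring, 2 with quantile normalization and 2 without arrays 4, 7 and 8. In UUO they were 0 at 0.01 and with either covariate, and 5 with array weights, quantile normalization, only the arrays compared, or without arrays 4, 7 and 8. At day 3 they were 0 at 0.01 and with either covariate, and 3 with array weights, quantile normalization, only the arrays compared, or without arrays 4, 7 and 8, which also gave 2 at day 7 and 1 at day 14. In UUO minus folic acid day 14 they were 0 at 0.01, with the proximal tubule covariate, with only the arrays compared, or without arrays 4, 7 and 8, while the macrophage covariate gave 2. For day 14 minus day 3 the proximal tubule covariate gave 1. Leaving out each array in turn gave 0 to 3 for the F test, 1 to 4 in UUO, 0 to 3 at day 3, 0 to 2 at day 7, 0 to 3 in UUO minus folic acid day 14 and 0 to 1 for day 14 minus day 3. Counts of the 52 wider genes called in UUO were 9 at 0.01, 7 with the macrophage covariate and 3 with the proximal tubule covariate. At day 3 they were 8 with the proximal tubule covariate. At day 7 they were 6 at 0.01, 0 with the macrophage covariate and 6 with the proximal tubule covariate, and at day 14 4 with only the arrays compared and at 0.01, and the macrophage covariate gave 0. In UUO minus folic acid day 14 they were 3 with the mean of probe sets, 2 with no filter on dim genes, with trend and robust settings or without arrays 4, 7 and 8, and 0 with the proximal tubule covariate. Leaving out each array in turn gave 9 to 18 in UUO, 12 to 17 at day 3, 8 to 13 at day 7, 4 to 7 at day 14 and 1 to 3 in UUO minus folic acid day 14.

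Signs turned with array weights in UUO Sod1 -0.08, in UUO minus folic acid day 14 Gclm 0.11 and at day 14 Sod1 -0.06, Gclm -0.06 and Txnrd1 0.03. Signs turned with the macrophage covariate in UUO Sod1 -0.07 and Sod3 -0.08, in UUO minus folic acid day 14 Sod1 0.10, at day 3 Nqo1 0.26, at day 7 Sod2 1.26, Sod3 -0.004, Cat 2.03, Gpx1 0.67, Gpx3 0.80, Nqo1 0.59, Hmox1 -0.92, Gclm 0.04, Txnrd1 0.17, Nnt 0.96 and Tfrc 0.95 and at day 14 Sod1 -0.16, Cat 2.52, Nqo1 0.67, Hmox1 -0.96 and Txnrd1 0.29. Signs turned with the mean of probe sets in UUO Sod1 -0.05 and at day 14 Sod2 -0.21. Signs turned with the proximal tubule covariate in UUO Sod2 0.45, Cat 0.39, Gpx1 0.55, Nqo1 0.21, Txnrd1 0.03, Nnt 0.11 and Nox4 0.64, in UUO minus folic acid day 14 Sod2 0.02, Sod3 0.59, Cat 0.63, Gpx1 0.07, Nqo1 0.92, Gclm 0.72 and Txnrd1 0.08, at day 3 Cat 0.28, Gpx1 0.57, Gpx3 0.08, Nqo1 1.04 and Gclm 0.34 and at day 7 Cat 0.03, Gpx1 0.53, Gpx3 0.05 and Gclm 0.19. Signs turned with quantile normalization in UUO Sod1 -0.23 and Sod3 -0.23, at day 3 Txnrd1 -0.20 and at day 14 Sod1 -0.18 and Sod2 -0.03. Signs turned without arrays 4, 7 and 8 in UUO minus folic acid day 14 Sod1 0.13 and Gclm 0.76 and at day 14 Sod1 -0.12, Sod2 -0.32, Gpx1 -0.18, Gpx3 -0.21 and Gclm -0.74. Signs turned with other probe sets in UUO Sod1 -0.11, at day 3 Sod1 -0.15, at day 7 Sod1 -0.08 and at day 14 Sod2 -0.18, Sod2 -0.41 and Sod2 -0.46. Leaving out each array in turn, signs turned in UUO Sod1 (-0.15 to 0.14), Sod3 (-0.27 to 0.42), Gclm (-0.41 to 0.35) and Txnrd1 (-0.33 to 0.05), in UUO minus folic acid day 14 Sod1 (-0.20 to 0.10), Hmox1 (-0.22 to 0.48), Gclm (-0.46 to 0.31) and Txnrd1 (-0.26 to 0.03), at day 3 Nqo1 (-0.51 to 0.20) and Gclm (-0.51 to 0.05), at day 7 Gpx1 (-0.52 to 0.17) and Txnrd1 (-0.32 to 0.004) and at day 14 Sod1 (-0.09 to 0.22), Gpx3 (-0.04 to 0.17), Gclm (-0.24 to 0.44) and Txnrd1 (-0.19 to 0.14). No deposited background signal was used here, so how far folds of dim values (Nqo1, Gclm, Gpx7 in uninjured kidney, Tfrc in UUO) are compressed was not measured.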
